A study of Mus musculus with 6 samples.

Results

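The genes described here are 38 mouse genes of the integrated stress response and of the amino acid metabolism it controls. They are the rows of the deposited expression table whose gene symbol equals 1 of 38 listed names, and all 38 names were found among the 31115 genes of the table. The list holds 3 genes that set the phosphorylation of eIF2, 8 transcription factors and their regulators, 7 stress effectors and secreted factors, 8 amino acid transporters, 6 enzymes of serine and one-carbon metabolism, and 6 other amino acid enzymes. They were measured by RNA sequencing in 3 libraries labelled Ad-SPTBN1 and 3 labelled Ad-scramble. All 6 libraries were labelled as neonatal cardiomyocytes, the heart muscle cells of newborn mice, at day 2 of normal culture in DMEM with fetal bovine serum. The design text describes a comparison of such cells with and without overexpression of βII spectrin, the membrane skeleton protein encoded by Sptbn1. The labels give neither the constructs, the mouse strain, the purity of the cells nor the number of cultures behind each group. The p-values thus cover the spread between these 6 libraries, part or all of which may be technical.

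Sptbn1 went against the label. It measured 16.08, 16.45 and 15.75 FPKM (a level per length of transcript and per size of library) in the libraries labelled Ad-SPTBN1, against 50.83, 48.25 and 50.08 FPKM in those labelled Ad-scramble. The log2 difference was -1.57 ± 0.03 (SE, n = 3 per group, limma adjusted p = 2.72e-06 with the Benjamini-Hochberg method). The construct is not given, so whether its transcript would count in this mouse row is not known, and spectrin protein was not measured in these libraries. Every direction below is therefore that of the libraries labelled Ad-SPTBN1, against the libraries labelled Ad-scramble. It is not read as that of a gain or a loss of spectrin. "Higher" and "lower" are used for genes whose difference in log2(FPKM + 1) passed limma's test at an adjusted p under 0.05, taken over the 12608 genes that averaged 1 FPKM or more, and other differences are given as values.

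Defining markers of heart muscle were present at low levels. Actc1, the cardiac actin, averaged 46.2 ± 2.27 FPKM in libraries labelled Ad-SPTBN1 and 21.3 ± 0.405 FPKM in libraries labelled Ad-scramble (SD, n = 3 each), while the fibroblast collagen Col1a1 averaged 2402 FPKM in libraries labelled Ad-SPTBN1 and 2078 FPKM in libraries labelled Ad-scramble. Of 15 listed cardiomyocyte markers, 10 were tested and 7 were higher, and their summed level was 138 to 143 FPKM in libraries labelled Ad-SPTBN1, against 86.9 to 93.5 FPKM in libraries labelled Ad-scramble. None of 13 fibroblast markers was higher and 8 were lower, with sums of 4510 to 4733 FPKM in libraries labelled Ad-SPTBN1 and 4283 to 4613 FPKM in libraries labelled Ad-scramble. Col1a1 was the largest part of these sums and the 1 fibroblast marker with a log2 difference above 0 (0.21, limma adjusted p = 0.056). The other 12 lay below 0. Of 8 epicardial and mesothelial markers 5 were higher, with sums of 138 to 139 FPKM in libraries labelled Ad-SPTBN1 and 110 to 114 FPKM in libraries labelled Ad-scramble. Of 10 smooth muscle and pericyte markers 1 was higher and 3 were lower. Their sums were 1817 to 1845 FPKM in libraries labelled Ad-SPTBN1 and 1865 to 1887 FPKM in libraries labelled Ad-scramble. Acta2 was the largest part, at means of 1603.9 FPKM in libraries labelled Ad-SPTBN1 and 1629.5 FPKM in libraries labelled Ad-scramble. None of 8 endothelial or 3 tested macrophage markers passed, with Ptprc, Adgre1, C1qa and C1qb at 0 in at least 1 library. In these bulk samples fewer cells of a type and less RNA per cell cannot be told apart, and the part of these markers in the differences below was not tested. Converted back to reads in genes, the FPKM values gave 19017127 to 19638663 per library labelled Ad-SPTBN1 and 18775304 to 19512434 per library labelled Ad-scramble. These totals lay above the totals by which the FPKM values were scaled, 18466466 to 19062984 in libraries labelled Ad-SPTBN1 and 18223041 to 18940407 in libraries labelled Ad-scramble, so they are not the depth itself, and the source of the gap was not tested. Lars2 and CT010467.1, rows known in mouse to collect ribosomal RNA reads, had the largest log2 differences of all tested genes. Lars2 averaged 26.2 ± 5.25 FPKM in libraries labelled Ad-SPTBN1 and 1.50 ± 0.103 FPKM in libraries labelled Ad-scramble, and CT010467.1 averaged 393.9 ± 42.4 FPKM in libraries labelled Ad-SPTBN1 and 74.4 ± 4.398 FPKM in libraries labelled Ad-scramble (SD, n = 3 each). The part of these rows in the differences below was not tested.

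The integrated stress response begins with kinases that phosphorylate the translation initiation factor eIF2 when proteins misfold, amino acids run short, heme is lacking or viral RNA appears. Phosphorylated eIF2 slows most protein synthesis but favours translation of the mRNA for ATF4, so much of the control of ATF4 lies in translation and not in the level of its transcript. ATF4 pairs with C/EBP proteins and binds composite C/EBP-ATF response elements, at which it raises genes for amino acid uptake, for the synthesis of asparagine, serine and glycine, for tRNA charging and for feedback on the response itself. In heart and skeletal muscle the same programme is known to accompany defects of mitochondria, with the hormones FGF21 and GDF15 among its products.

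Promoter sequences are shown because ATF4 is known to act on such genes through that response element. RefSeq start sites on GRCm38.p6 gave promoters, from 250 bases before to 50 bases after the start, for 33 of the 38 genes, and those of Aldh1l2, Cth, Eif4ebp1, Slc1a5 and Slc7a5 were not used. The core of the response element, TGATGNAA, was searched on both strands, and 11 of the 33 genes held it (33.3%), against 1219 of 27025 genes with a promoter in the table (4.51%). Among single promoters the share was 3.97% of 32851. The 38 genes were listed for their known part in this response, so a share above that of all genes follows in part from the choice. The contrast of 33.3% with 4.51% is thus a description and not a test. The 30-base windows are printed 5′ to 3′ on the gene's strand with the match in capitals, where TTNCATCA is the same core on the other strand, and Slc7a11, which held it on both strands, has 2 overlapping windows.
Atf3, chr1:191183425-191183454, minus strand: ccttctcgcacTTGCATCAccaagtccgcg
Nupr1, chr7:126625562-126625591, minus strand: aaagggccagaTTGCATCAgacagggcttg
Trib3, chr2:152344028-152344057, minus strand: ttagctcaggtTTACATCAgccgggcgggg
Chac1, chr2:119351038-119351067, plus strand: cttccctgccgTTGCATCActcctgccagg
Fgf21, chr7:45615611-45615640, minus strand: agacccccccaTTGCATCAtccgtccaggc
Vldlr, chr19:27216809-27216838, plus strand: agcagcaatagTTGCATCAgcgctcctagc
Slc1a4, chr11:20332699-20332728, minus strand: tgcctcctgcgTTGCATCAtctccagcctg
Slc7a11, chr3:50443661-50443690, minus strand: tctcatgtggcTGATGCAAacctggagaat
Slc7a11, chr3:50443642-50443671, minus strand: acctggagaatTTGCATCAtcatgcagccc
Asns, chr6:7693214-7693243, minus strand: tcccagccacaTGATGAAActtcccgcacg
Pck2, chr14:55540152-55540181, plus strand: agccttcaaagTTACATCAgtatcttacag
Pycr1, chr11:120643833-120643862, minus strand: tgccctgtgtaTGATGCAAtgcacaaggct
A match is a description of letters and not a measured binding site. The matches began between 200 bases before and 15 bases after the RefSeq start, and that of Vldlr lies before a second listed start of the gene. Of the 12 genes with a promoter that passed the test below, 3 held the core, namely Chac1, Asns and Nupr1, and of the other 21 genes 8 held it. The median log2 difference was 0.111 for genes with the core and 0.114 for genes with a promoter that lacked it. The cyclic AMP response element TGACGTCA, also searched on both strands, was found in 1 of the 33 genes, Ppp1r15a, against 2.03% of all genes with a promoter.
Ppp1r15a, chr7:45526262-45526291, minus strand: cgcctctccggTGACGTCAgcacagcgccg

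**Figure D1:**
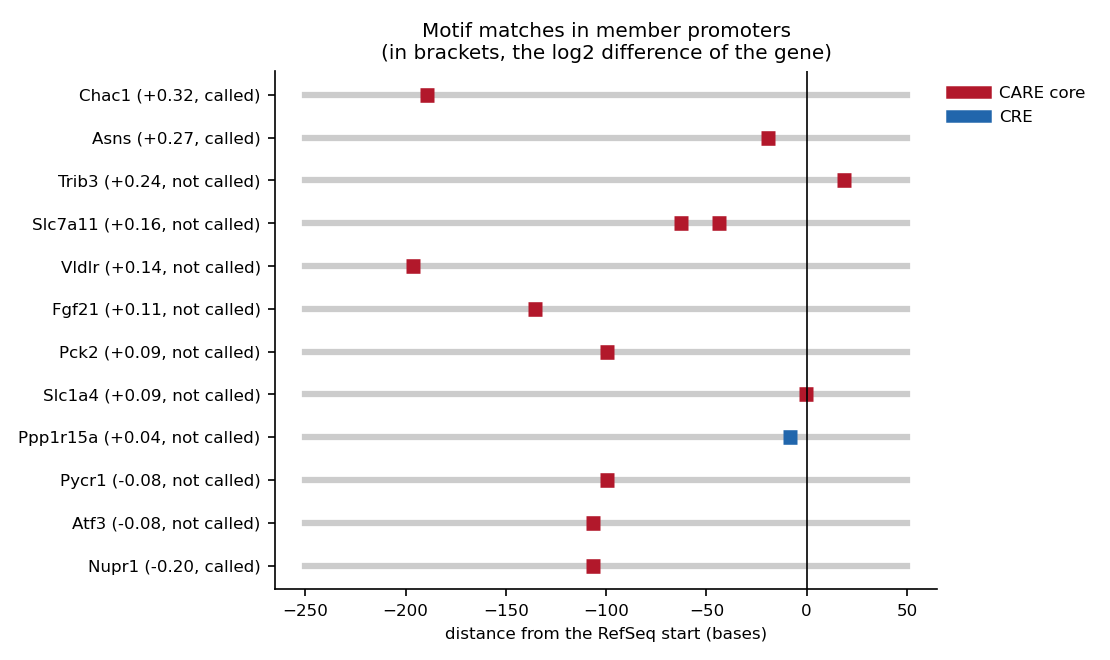
Positions of the 2 motifs in the promoters of the listed genes that hold one, in bases from the RefSeq start site (0). Each marker is a bar along a match that begins at its leftmost base on the gene's strand. Most matches to the response element core lie within 200 bases before the start, and the cyclic AMP element of Ppp1r15a lies 12 bases before it.

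Most of the 38 genes were slightly more abundant in libraries labelled Ad-SPTBN1. The test covered 37 of the 38 genes and called 12 higher and 1 lower, a share of 35.1%, against 11.0% of all genes tested (5.54% higher and 5.50% lower). The 38 genes were chosen with earlier results of these data known, so this contrast is a description and not a test. The log2 difference was above 0 for 31 genes and below 0 for 6, where 50.7% of all tested genes lay above 0. Its median was 0.105, against 0.002 over all tested genes, and its range was -0.20 to 0.48. In 18 genes every library labelled Ad-SPTBN1 lay above every library labelled Ad-scramble, and in 2 genes every one lay below, where 16.5% and 15.8% of all tested genes did so. Within a group the 3 libraries lay close together, with a median coefficient of variation over the genes of 3.6% in libraries labelled Ad-SPTBN1 and 3.97% in libraries labelled Ad-scramble.

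The 12 higher genes were Sesn2, Slc7a1, Chac1, Phgdh, Asns, Atf5, Slc7a5, Psat1, Mthfd2, Ddit3, Slc38a2 and Atf4, and the lower gene was Nupr1. Calls of 5 of these 13 genes, Sesn2, Slc7a1, Chac1, Asns and Slc7a5, held when any 1 of the 6 libraries was left out, and the number of the 38 genes called without 1 library was 6 to 12. It was 6 without Ad-scramble replicate 1, 8 without Ad-scramble replicate 3, and 7 without Ad-SPTBN1 replicate 1 or replicate 3. The call of Phgdh ended without Ad-SPTBN1 replicate 3 (limma adjusted p = 0.0532) and that of Psat1 without Ad-scramble replicate 1 (0.0524). The call of Mthfd2 ended when Ad-scramble replicate 1 or any library labelled Ad-SPTBN1 was left out, and that of Nupr1 when replicate 1 or 3 of either group was. The call of Atf5 held only without Ad-scramble replicate 2, and that of Ddit3 only without Ad-SPTBN1 replicate 2. Those of Atf4 and Slc38a2 ended whichever of the 6 libraries was left out.

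**Figure D2:**
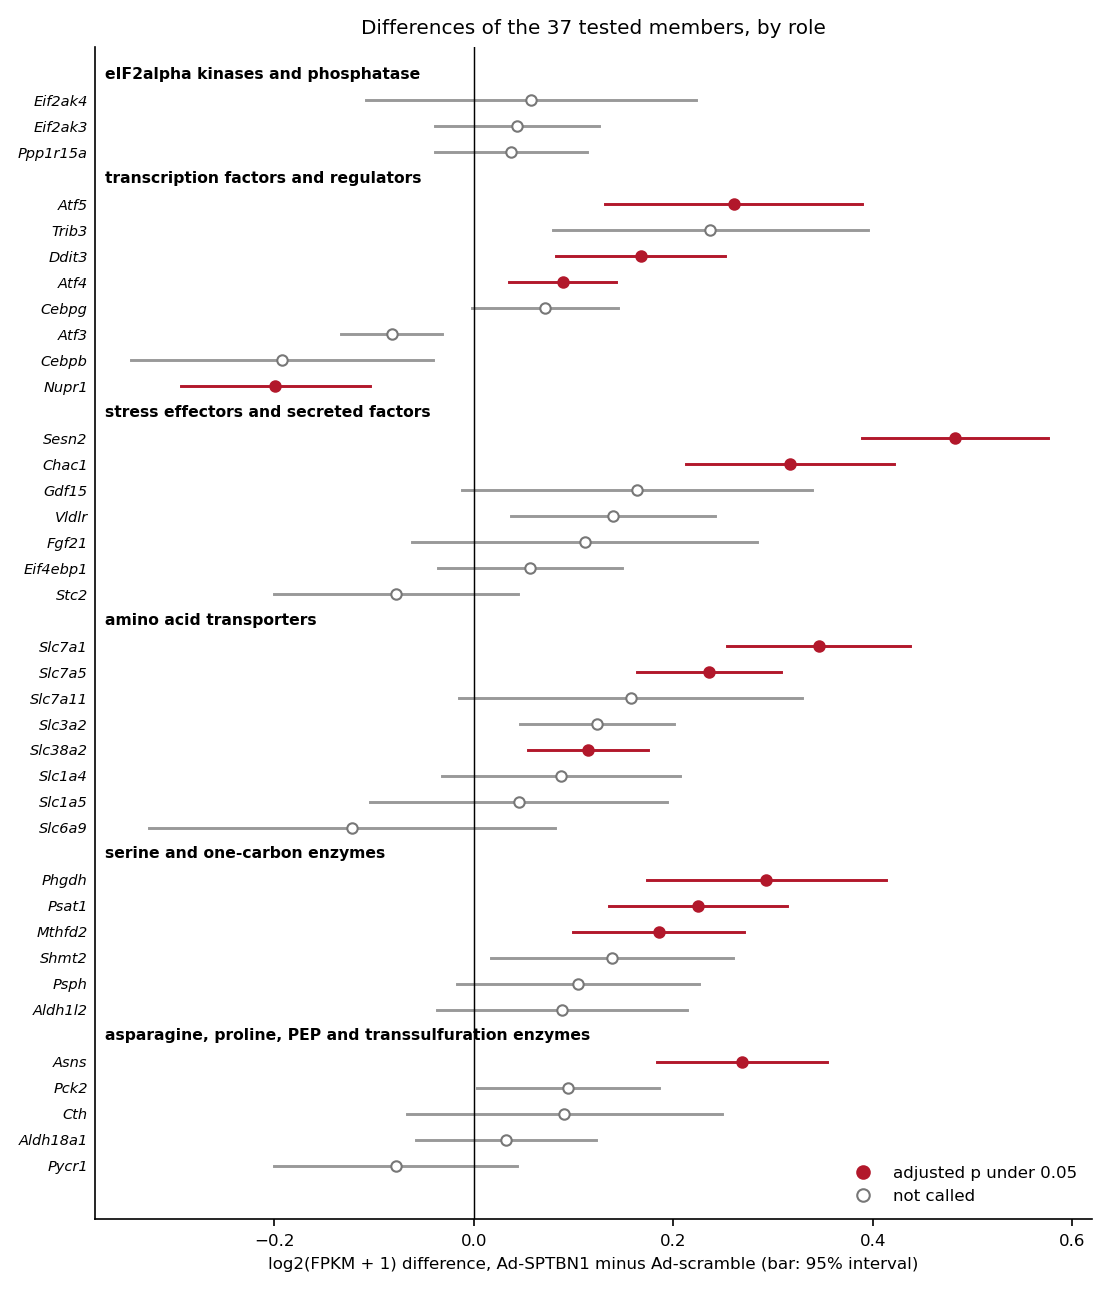
Difference in log2(FPKM + 1), Ad-SPTBN1 minus Ad-scramble, for the 37 tested genes grouped by role, with bars for the 95% interval from limma and filled points for genes called at an adjusted p under 0.05. The called differences run from 0.48 for Sesn2 to -0.20 for Nupr1, and the kinases and phosphatase of eIF2 lie near 0.

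None of the 3 genes that set eIF2 phosphorylation passed the test. Ppp1r15a, the stress-induced phosphatase subunit GADD34 that restores translation, measured 105, 109.9 and 104 FPKM in libraries labelled Ad-SPTBN1, against 104, 106 and 101 FPKM in libraries labelled Ad-scramble. The groups overlapped, and the 95% interval of its log2 difference ran from -0.04 to 0.11. Eif2ak3, which encodes the endoplasmic reticulum kinase PERK, averaged 21.6 FPKM in libraries labelled Ad-SPTBN1 and 21.0 FPKM in libraries labelled Ad-scramble, with an interval of -0.04 to 0.13. Eif2ak4, which encodes the amino acid sensor GCN2, averaged 3.19 FPKM in libraries labelled Ad-SPTBN1 and 3.02 FPKM in libraries labelled Ad-scramble, with an interval of -0.11 to 0.22. These are transcript levels, and phosphorylation of eIF2 was not measured.

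Of the 8 transcription factors and regulators 3 were higher and 1 was lower, where 11.0% of all genes tested were called. Atf4 (ENSMUSG00000042406, GRCm38 chr15:80255184-80257541, plus strand), the central activator and the most abundant of the 38 genes, measured 245, 240.5 and 246 FPKM in libraries labelled Ad-SPTBN1, against 228, 228 and 232 FPKM in libraries labelled Ad-scramble. The groups did not overlap, but the difference was small, 6.4% of the mean in libraries labelled Ad-scramble (log2 0.09 ± 0.02, SE, n = 3 per group, limma adjusted p = 0.0491 with the Benjamini-Hochberg method, and 0.0725 to 0.146 without 1 library). Atf5, a relative of Atf4 that also acts in the mitochondrial stress response, measured 55.9, 58.0 and 59.4 FPKM in libraries labelled Ad-SPTBN1, against 46.8, 52.4 and 45.3 FPKM in libraries labelled Ad-scramble. Its log2 difference was 0.26 ± 0.05 (adjusted p = 0.0263 in limma, and 0.0106 to 0.086 without 1 library). Ddit3, which encodes the factor CHOP linked to cell death under prolonged stress, measured 29.2, 27.4 and 29.3 FPKM in libraries labelled Ad-SPTBN1, against 25.5, 25.8 and 24.9 FPKM in libraries labelled Ad-scramble. Its difference of 12.8% (log2 0.17 ± 0.04, limma adjusted p = 0.0286) had adjusted p-values of 0.0318 to 0.0968 without 1 library. In Ddit3 and Atf5 all libraries labelled Ad-SPTBN1 lay above all those labelled Ad-scramble.

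Nupr1, a small stress-induced chromatin protein, was the lower gene. It measured 44.9, 47.4 and 44.1 FPKM in libraries labelled Ad-SPTBN1, against 51.0, 51.3 and 54.7 FPKM in libraries labelled Ad-scramble. The 3 libraries labelled Ad-SPTBN1 lay below the other 3, by 13.1% on average (log2 -0.20 ± 0.04, limma adjusted p = 0.0232, and 0.0348 to 0.0788 without 1 library). Cebpb, the C/EBP protein that pairs with ATF4 and also acts in inflammation and fat cell formation, measured 143, 156 and 171 FPKM in libraries labelled Ad-SPTBN1, against 179.7, 186 and 171 FPKM in libraries labelled Ad-scramble. Its groups met at their edge, and the log2 difference of -0.19 ± 0.06 did not pass (limma adjusted p = 0.106) but did with voom on recovered reads (0.00601) and without Ad-SPTBN1 replicate 3 (0.0479). Of its exon bases 20.7% lie opposite exons of Tmem189, from which reads cannot be told apart if strand was not used in counting.

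Trib3, the pseudokinase that ATF4 and CHOP induce and that restrains them, measured 21.45, 19.3 and 23.1 FPKM in libraries labelled Ad-SPTBN1, against 16.8, 18.7 and 18.1 FPKM in libraries labelled Ad-scramble. The groups did not overlap, but the log2 difference of 0.24 ± 0.07 did not pass the test (limma adjusted p = 0.0667). It passed with a minimum mean of 5 FPKM (0.0425), with voom (0.0113) and without Ad-SPTBN1 replicate 2 (0.0399). Atf3, a stress-induced repressor that falls outside the rule for named genes and was picked with its values known, had 156, 157 and 156 FPKM in libraries labelled Ad-SPTBN1, against 165, 166 and 166 FPKM in libraries labelled Ad-scramble. Those values lay close together within each group and apart between them, and the log2 difference of -0.08 ± 0.02 missed the threshold (limma adjusted p = 0.052) but passed with a minimum mean of 5 FPKM (0.0431) and after rescaling by the upper quartile (0.0472). Cebpg, another partner of ATF4, averaged 18.0 FPKM in libraries labelled Ad-SPTBN1 and 17.0 FPKM in libraries labelled Ad-scramble, with a log2 difference of 0.07 and an adjusted p in limma of 0.197.

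Of the 7 effectors and secreted factors, 2 were higher (28.6%, against 11.0% of all genes tested). They held the first and the third largest called increases among the 38 genes. Sesn2 (ENSMUSG00000028893, GRCm38 chr4:132492032-132510501, minus strand) encodes sestrin 2, a leucine-binding protein that restrains mTORC1 when amino acids are short. It measured 70.0, 74.7 and 72.9 FPKM in libraries labelled Ad-SPTBN1, against 51.2, 54.0 and 49.7 FPKM in libraries labelled Ad-scramble. The lowest library labelled Ad-SPTBN1 lay well above the highest labelled Ad-scramble, and the means differed by 40.4% (log2 0.48 ± 0.04, SE, n = 3 per group, limma adjusted p = 0.00106). By the size of its log2 difference, highest first, Sesn2 ranked 118 of 12608 genes, and its values rest on 4636 to 4910 recovered reads in libraries labelled Ad-SPTBN1 and 3199 to 3421 in libraries labelled Ad-scramble. Chac1 (ENSMUSG00000027313, chr2:119351229-119354381, plus strand), an enzyme that breaks down glutathione, measured 108, 115 and 105 FPKM in libraries labelled Ad-SPTBN1, against 85.8, 92.05 and 85.1 FPKM in libraries labelled Ad-scramble. Its groups did not overlap, and the log2 difference was 0.32 ± 0.04 (limma adjusted p = 0.0067).

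The promoters of Sesn2, Slc7a1 and Chac1, the 3 largest called increases, and that of Asns, whose human promoter served as a model for this element, are printed for comparison, each on its gene's strand on GRCm38.p6 with any match to TGATGNAA in capitals. Chac1 and Asns hold 1 match each, and Sesn2 and Slc7a1 hold none in these windows, including the window at the second listed start of Slc7a1, which is not printed.
Sesn2, chr4:132510407-132510706, minus strand: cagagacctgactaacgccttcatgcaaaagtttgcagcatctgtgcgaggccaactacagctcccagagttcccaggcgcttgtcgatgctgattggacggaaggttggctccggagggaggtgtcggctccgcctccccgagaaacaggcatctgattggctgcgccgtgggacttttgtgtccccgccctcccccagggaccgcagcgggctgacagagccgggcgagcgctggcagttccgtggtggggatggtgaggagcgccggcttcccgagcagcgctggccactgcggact
Slc7a1, chr5:148399855-148400154, minus strand: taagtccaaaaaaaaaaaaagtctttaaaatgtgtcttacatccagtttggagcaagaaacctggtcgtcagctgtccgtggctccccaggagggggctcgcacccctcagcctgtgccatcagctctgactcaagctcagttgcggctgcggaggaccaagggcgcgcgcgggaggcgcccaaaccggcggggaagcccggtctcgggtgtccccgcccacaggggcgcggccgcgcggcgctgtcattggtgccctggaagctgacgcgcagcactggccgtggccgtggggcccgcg
Chac1, chr2:119350992-119351291, plus strand: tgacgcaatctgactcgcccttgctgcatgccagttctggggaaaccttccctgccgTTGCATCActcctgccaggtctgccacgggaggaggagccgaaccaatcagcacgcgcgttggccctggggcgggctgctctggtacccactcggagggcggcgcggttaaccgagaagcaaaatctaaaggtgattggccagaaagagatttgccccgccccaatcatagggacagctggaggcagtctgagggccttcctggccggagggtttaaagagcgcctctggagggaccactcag
Asns, chr6:7693160-7693459, minus strand: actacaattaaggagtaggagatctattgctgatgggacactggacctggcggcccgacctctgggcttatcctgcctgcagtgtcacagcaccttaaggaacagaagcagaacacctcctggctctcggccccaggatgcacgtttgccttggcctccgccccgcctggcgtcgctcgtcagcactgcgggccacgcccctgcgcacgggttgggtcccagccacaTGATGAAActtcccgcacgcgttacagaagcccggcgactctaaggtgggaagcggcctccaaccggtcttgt

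The remaining effectors did not pass. Eif4ebp1, the translation repressor 4E-BP1, measured 44.8, 48.5 and 49.3 FPKM in libraries labelled Ad-SPTBN1, against 45.6, 45.3 and 45.9 FPKM in libraries labelled Ad-scramble, so the groups overlapped (log2 interval -0.04 to 0.15). Gdf15, which encodes a secreted factor that curbs appetite, averaged 23.2 ± 1.86 FPKM in libraries labelled Ad-SPTBN1 and 20.6 ± 1.72 FPKM in libraries labelled Ad-scramble (SD, n = 3 each, log2 interval -0.01 to 0.34). Fgf21, which encodes a hormone of the fasting liver and stressed muscle, averaged 15.6 FPKM in libraries labelled Ad-SPTBN1 and 14.3 FPKM in libraries labelled Ad-scramble (interval -0.06 to 0.28). For these hormones the intervals reach from about no difference to increases the size of those of Asns or Slc7a5. Vldlr, a lipoprotein receptor, averaged 6.25 FPKM in libraries labelled Ad-SPTBN1 and 5.58 FPKM in libraries labelled Ad-scramble without overlap between the groups (log2 0.14 ± 0.04, limma adjusted p = 0.0877, and 0.0247 with voom), and Stc2, a secreted glycoprotein, averaged 8.58 FPKM in libraries labelled Ad-SPTBN1 and 9.12 FPKM in libraries labelled Ad-scramble with overlap.

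Among the 8 amino acid transporters 3 were higher and none was lower (37.5%, against 11.0% of all genes tested). Slc7a1 (ENSMUSG00000041313, chr5:148327410-148399904, minus strand) encodes CAT-1, which carries arginine and other cationic amino acids. It measured 27.95, 27.6 and 26.1 FPKM in libraries labelled Ad-SPTBN1, against 21.0, 20.7 and 22.0 FPKM in libraries labelled Ad-scramble. The groups lay far apart for their spread, with means differing by 28.4% (log2 0.35 ± 0.04, limma adjusted p = 0.00334). Slc7a5 (ENSMUSG00000040010, chr8:121881150-121907694, minus strand) encodes LAT1, the light chain of the exchanger that brings in leucine and other large neutral amino acids. It measured 73.3, 76.4 and 74.8 FPKM in libraries labelled Ad-SPTBN1, against 65.2, 63.3 and 61.7 FPKM in libraries labelled Ad-scramble, without overlap (log2 0.24 ± 0.03, limma adjusted p = 0.00525). Slc3a2 encodes CD98, the heavy chain that LAT1 needs to reach the membrane, and measured 74.2, 74.9 and 77.1 FPKM in libraries labelled Ad-SPTBN1, against 67.1, 71.8 and 68.7 FPKM in libraries labelled Ad-scramble. It too did not overlap, but its log2 difference of 0.12 ± 0.03 did not pass (limma adjusted p = 0.0556, 0.0124 with voom and 0.0425 without Ad-scramble replicate 2).

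Slc38a2 encodes SNAT2, a sodium-coupled carrier of small neutral amino acids known to be induced when these run short. It measured 82.2, 81.8 and 82.9 FPKM in libraries labelled Ad-SPTBN1, against 76.4, 74.3 and 77.2 FPKM in libraries labelled Ad-scramble. The groups did not overlap, and the difference of 8.3% (log2 0.11 ± 0.03) had an adjusted p of 0.0328 in limma, and of 0.0504 to 0.108 without 1 library. The other 4 transporters overlapped between the groups and did not pass. Slc7a11, the light chain of the cystine carrier that feeds glutathione synthesis, averaged 2.08 FPKM in libraries labelled Ad-SPTBN1 and 1.76 FPKM in libraries labelled Ad-scramble (log2 interval -0.02 to 0.33, limma adjusted p = 0.224), and with voom its log2 difference was 0.24 and passed (adjusted p = 0.035). Slc1a4 and Slc1a5, both carriers of alanine, serine and cysteine or glutamine, differed by log2 0.09 and 0.04, and the difference of Slc1a5 was -0.025 without Ad-scramble replicate 3. Slc6a9, a glycine transporter, had a log2 difference of -0.12. Of the exon bases of Slc6a9, 30.2% lie opposite other genes, and 26.3% of its 50-base words occur in other genes, so its level is uncertain.

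**Figure D3:**
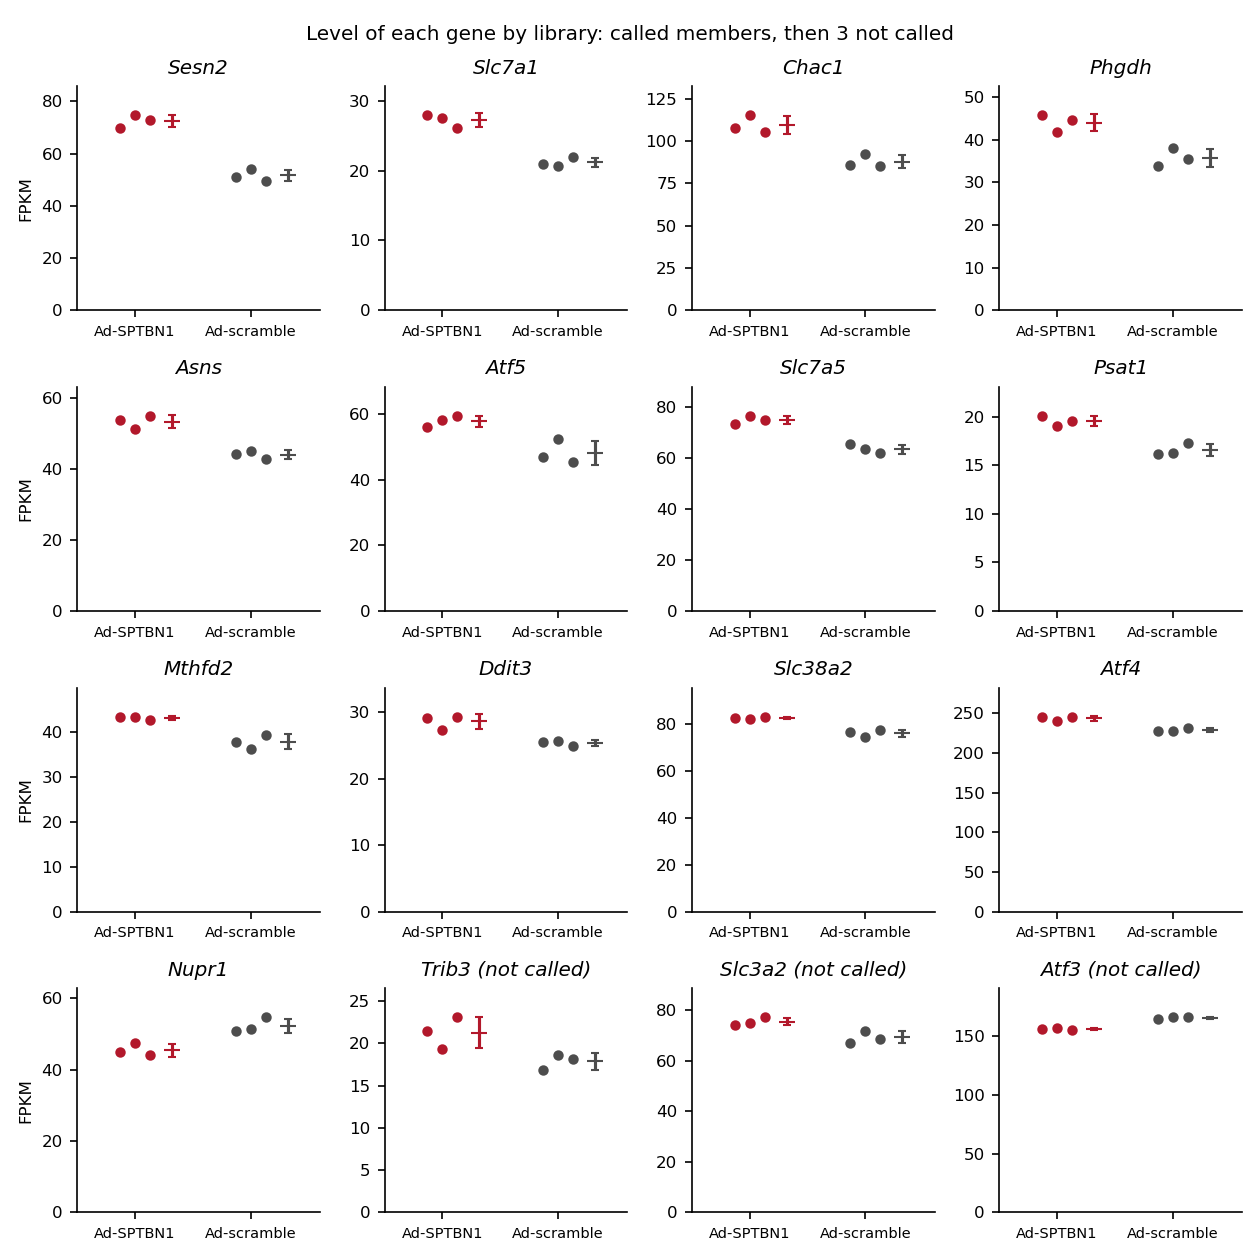
FPKM in each library for the 13 called genes, in order of their difference, and for Trib3, Slc3a2 and Atf3, with points for libraries and the mean ± SD of each group beside them. In all 16 genes the 3 libraries labelled Ad-SPTBN1 lie on 1 side of the 3 labelled Ad-scramble, above them except in Nupr1 and Atf3. Trib3, Slc3a2 and Atf3 come from the 7 of 24 uncalled genes whose groups did not overlap, so for them this was fixed by the choice. Of all tested genes 16.5% lay above in this way and 15.8% below.

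Enzymes of serine and one-carbon metabolism were higher in 3 of 6 cases and lower in none, where 11.0% of all genes tested were called. Phgdh, which encodes the first enzyme of serine synthesis from glycolysis, measured 45.8, 41.9 and 44.6 FPKM in libraries labelled Ad-SPTBN1, against 33.8, 38.01 and 35.6 FPKM in libraries labelled Ad-scramble. Its means differed by 23.1% (log2 0.29 ± 0.05, limma adjusted p = 0.0144), but 47.8% of its 50-base words occur in other genes, so its level is uncertain. Psat1, the next enzyme of that route, measured 20.1, 19.1 and 19.6 FPKM in libraries labelled Ad-SPTBN1, against 16.2, 16.3 and 17.3 FPKM in libraries labelled Ad-scramble. Neither gene overlapped between the groups, and Psat1 had a log2 difference of 0.22 ± 0.04 (limma adjusted p = 0.0134). Psph, which encodes the phosphatase that completes serine synthesis, averaged 5.31 FPKM in libraries labelled Ad-SPTBN1 and 4.86 FPKM in libraries labelled Ad-scramble and overlapped (log2 0.10, limma adjusted p = 0.249). Of the exon bases of Psph 10.4% lie opposite exons of Cct6a, and 8.8% of its 50-base words occur in that gene.

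Mthfd2, the mitochondrial folate enzyme that is low in most adult tissue and high in growing cells, measured 43.3, 43.2 and 42.5 FPKM in libraries labelled Ad-SPTBN1, against 37.7, 36.0 and 39.3 FPKM in libraries labelled Ad-scramble. The groups did not overlap (log2 0.19 ± 0.04, limma adjusted p = 0.0218, and 0.02 to 0.0729 without 1 library). Shmt2, which moves a carbon from serine to folate in mitochondria, measured 23.8, 25.0 and 25.5 FPKM in libraries labelled Ad-SPTBN1, against 21.6, 24.2 and 21.5 FPKM in libraries labelled Ad-scramble. Its replicate 2 of Ad-scramble lay among the libraries labelled Ad-SPTBN1, and the log2 difference of 0.14 ± 0.05 did not pass (limma adjusted p = 0.138, and 0.044 without that library). Aldh1l2, the mitochondrial enzyme that oxidises formyl folate, averaged 3.60 FPKM in libraries labelled Ad-SPTBN1 and 3.32 FPKM in libraries labelled Ad-scramble with an adjusted p in limma of 0.342. Of its exon bases 14.1% lie opposite other genes, and 13.6% of its 50-base words occur in other genes.

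Of the other amino acid enzymes 5 were tested, 1 was higher and none was lower, where 11.0% of all genes tested were called. Asns (ENSMUSG00000029752, chr6:7675169-7693254, minus strand), asparagine synthetase, measured 53.6, 51.1 and 54.8 FPKM in libraries labelled Ad-SPTBN1, against 44.15, 45.1 and 42.65 FPKM in libraries labelled Ad-scramble. The groups did not overlap, and the means differed by 20.9% (log2 0.27 ± 0.04, limma adjusted p = 0.00592). Aldh18a1, which encodes the first enzyme of proline synthesis from glutamate, measured 15.5, 14.6 and 15.5 FPKM in libraries labelled Ad-SPTBN1, against 15.0, 14.4 and 15.0 FPKM in libraries labelled Ad-scramble. Those values overlapped (log2 interval -0.06 to 0.12), as did those of Pycr1, the last enzyme of the same route, at means of 4.18 FPKM in libraries labelled Ad-SPTBN1 and 4.47 FPKM in libraries labelled Ad-scramble (log2 -0.08). Pck2, the mitochondrial enzyme that makes phosphoenolpyruvate, averaged 6.79 FPKM in libraries labelled Ad-SPTBN1 and 6.30 FPKM in libraries labelled Ad-scramble without overlap (log2 0.09, limma adjusted p = 0.173). Cth, which makes cysteine from cystathionine, averaged 5.31 FPKM in libraries labelled Ad-SPTBN1 and 4.93 FPKM in libraries labelled Ad-scramble with overlap (log2 0.09). Cbs, the enzyme before it, was not tested, at 0.454 to 0.522 FPKM (63 to 74 reads per library) in libraries labelled Ad-SPTBN1 and 0.263 to 0.565 FPKM (36 to 78 reads) in libraries labelled Ad-scramble.

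Genes of the same pathways outside the 38 were taken from 6 lists with 135 genes in the table, of which 128 were tested. The lists too were chosen with earlier results of these data known, so their shares are descriptions. Of these 23 were higher and 2 were lower (19.5%, against 11.0% of all genes tested), with a median log2 difference of 0.047. Other known ATF4-responsive genes held the largest share of calls of the 6 lists (38.5%), with 10 of 26 higher, none lower, a median of 0.103 and 24 of the 26 above 0. Cars, which encodes the tRNA synthetase for cysteine, measured 13.6, 14.3 and 14.0 FPKM in libraries labelled Ad-SPTBN1, against 11.5, 10.9 and 11.3 FPKM in libraries labelled Ad-scramble (log2 0.29, limma adjusted p = 0.00468). Iars, that for isoleucine, measured 23.2, 22.9 and 23.4 FPKM in libraries labelled Ad-SPTBN1, against 19.9, 19.0 and 19.9 FPKM in libraries labelled Ad-scramble (log2 0.23, limma adjusted p = 0.00663). Among the 12 cytosolic tRNA synthetases of that list 6 were higher and none was lower, with a median of 0.145, and Cars and Iars did not overlap between the groups. Ero1l, an oxidase that helps form disulfide bonds in the endoplasmic reticulum, measured 29.0, 27.2 and 30.2 FPKM in libraries labelled Ad-SPTBN1, against 22.8, 21.1 and 22.6 FPKM in libraries labelled Ad-scramble (log2 0.36, limma adjusted p = 0.00567). In this list 7 of 20 genes with a promoter held the response element core (10 of 108 over all 6 lists). Its genes were listed as known to respond to ATF4, so this share too is a description.

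Other regulators of eIF2 were higher in 3 of 17 cases (17.6%, against 11.0% of all genes tested). Eif2s3x, the X-linked gamma subunit of eIF2, measured 38.5, 37.5 and 36.1 FPKM in libraries labelled Ad-SPTBN1, against 31.15, 31.0 and 30.8 FPKM in libraries labelled Ad-scramble (log2 0.26, limma adjusted p = 0.00426). Ppp1r15b, the constitutive counterpart of Ppp1r15a, measured 44.0, 43.5 and 43.4 FPKM in libraries labelled Ad-SPTBN1, against 37.6, 36.9 and 39.3 FPKM in libraries labelled Ad-scramble (log2 0.20, limma adjusted p = 0.0106). Both genes lay apart between the groups, as did Eif2b1, a subunit of the exchange factor of eIF2, at 18.8, 19.2 and 19.7 FPKM in libraries labelled Ad-SPTBN1, against 17.3, 16.9 and 17.2 FPKM in libraries labelled Ad-scramble. The call of Eif2b1 (limma adjusted p = 0.0239) held only without Ad-SPTBN1 replicate 1, with values of 0.0496 to 0.0857 over the 6 libraries left out.

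Amino acid transporters outside the 38 were higher in 2 of 19 cases, with a median of 0.03. That share of 10.5% lay near the 11.0% of all genes tested. Slc7a2, a second carrier of cationic amino acids, measured 14.3, 15.5 and 14.7 FPKM in libraries labelled Ad-SPTBN1, against 12.8, 12.0 and 12.8 FPKM in libraries labelled Ad-scramble (log2 0.23, limma adjusted p = 0.0196, and up to 0.0643 without 1 library). Slc6a17, known in brain as a vesicle carrier of neutral amino acids, measured 5.50, 5.91 and 5.92 FPKM in libraries labelled Ad-SPTBN1, against 4.38, 4.83 and 4.42 FPKM in libraries labelled Ad-scramble (log2 0.29, limma adjusted p = 0.017, and up to 0.0636 without 1 library). Both calls ended without Ad-scramble replicate 1 and without Ad-SPTBN1 replicate 2 or 3, that of Slc7a2 also without Ad-scramble replicate 2 and that of Slc6a17 without Ad-scramble replicate 3. Other amino acid and one-carbon enzymes were higher in 5 of 34 cases and lower in 1 (17.6% called), with a median of 0.044. Gpt2, the mitochondrial alanine transaminase, measured 3.29, 3.16 and 3.24 FPKM in libraries labelled Ad-SPTBN1, against 2.00, 2.36 and 2.15 FPKM in libraries labelled Ad-scramble (log2 0.42, limma adjusted p = 0.00838). Glul, glutamine synthetase, measured 62.3, 62.5 and 61.6 FPKM in libraries labelled Ad-SPTBN1, against 52.2, 53.2 and 52.4 FPKM in libraries labelled Ad-scramble (log2 0.24, limma adjusted p = 0.00238). Both lay apart between the groups, and the lower gene was Oat, ornithine aminotransferase, at 70.2, 67.8 and 68.0 FPKM in libraries labelled Ad-SPTBN1, against 75.5, 77.0 and 77.4 FPKM in libraries labelled Ad-scramble (log2 -0.16, limma adjusted p = 0.0138, ending at up to 0.0558 without Ad-SPTBN1 replicate 2 or 3).

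Among neighbouring branches of the stress response the share of genes called was near that of all genes tested. Of 21 genes of the ATF6 and XBP1 branches and the chaperones they serve, 2 were higher and 1 was lower (14.3%, against 11.0% of all genes tested), with a median of 0.017. Ern1, the IRE1 sensor that splices Xbp1, measured 12.8, 14.3 and 14.2 FPKM in libraries labelled Ad-SPTBN1, against 11.4, 11.5 and 11.0 FPKM in libraries labelled Ad-scramble (log2 0.26, limma adjusted p = 0.0193, and up to 0.0679, with the call ended, without replicate 1 or 3 of Ad-scramble or 2 or 3 of Ad-SPTBN1). Canx, a lectin chaperone, measured 97.7, 96.0 and 97.4 FPKM in libraries labelled Ad-SPTBN1, against 91.1, 87.9 and 91.6 FPKM in libraries labelled Ad-scramble. Calr, its soluble relative, measured 357, 350.4 and 359 FPKM in libraries labelled Ad-SPTBN1, against 377, 375 and 389 FPKM in libraries labelled Ad-scramble. Canx and Calr did not overlap between the groups and passed narrowly in opposite directions (log2 0.10 and -0.10, limma adjusted p = 0.0491 and 0.049), and both calls ended whichever of the 6 libraries was left out. Of 11 genes of mitochondrial proteostasis 1 was higher (9.1%), Hspa9, the mitochondrial HSP70, at 140.1, 141 and 141 FPKM in libraries labelled Ad-SPTBN1, against 125, 124 and 126 FPKM in libraries labelled Ad-scramble (log2 0.17, limma adjusted p = 0.00589). The difference between any of these lists and the 38 genes was not tested.

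**Figure D4:**
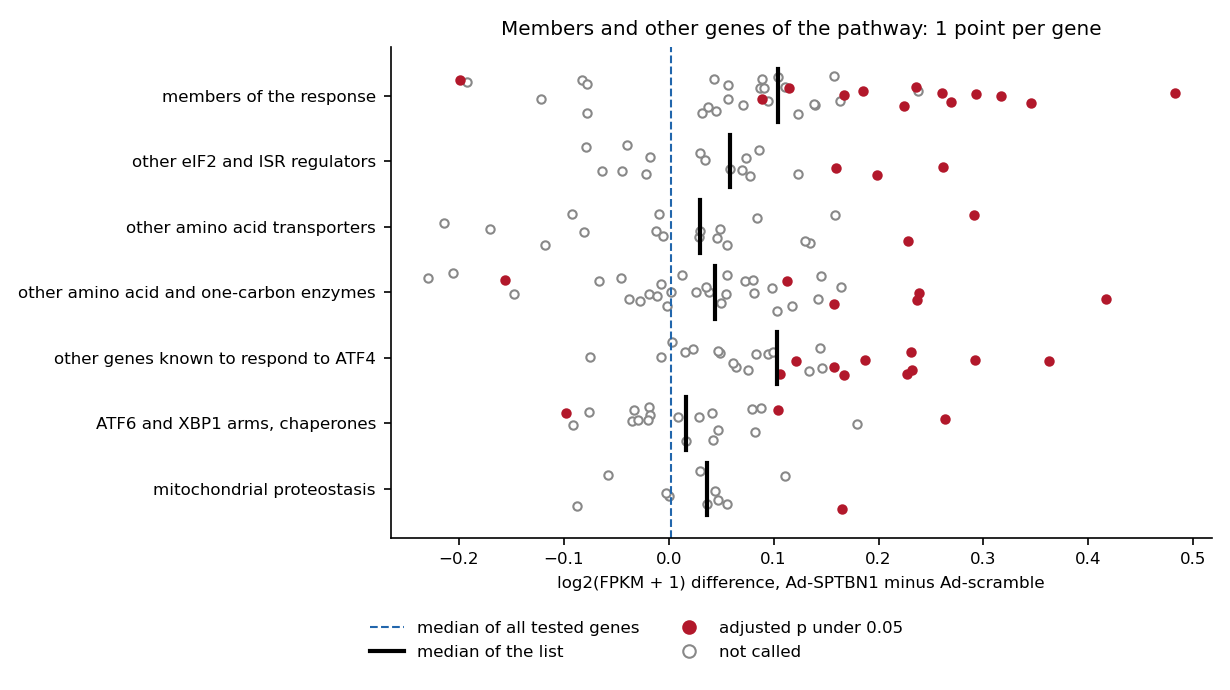
Difference in log2(FPKM + 1), Ad-SPTBN1 minus Ad-scramble, with 1 point per tested gene, for the 38 genes and for the 6 lists of other genes, with filled points for genes called at an adjusted p under 0.05. Black bars mark list medians and the dashed line the median of all tested genes, 0.002, and the medians of the 38 genes (0.105) and of the other ATF4-responsive genes (0.103) lie farthest above it.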

How the data were processed

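RNA was extracted with TRIzol and made into libraries with a NEBNext Ultra kit, per the labels' protocols. The authors deposited 1 table of FPKM values for 31115 genes, 1 column per library, on GRCm38 (mm10) per the submitters' processing notes. Whether strand was used, and which aligner, counter and annotation, is not given in the sources used here. With exon lengths from GENCODE M21 (31065 gene IDs matched), 95.6% to 95.7% of values above 0 in each library were whole numbers of reads within 0.1, so reads were recovered for a second test.

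FPKM values were tested as log2(FPKM + 1), not rescaled, using limma 3.58.1 (R 4.3.3, variance trend), over the 12608 genes that averaged 1 FPKM or more, all 6 libraries, no covariate and Benjamini-Hochberg adjustment. Such differences understate the change of low genes. No 2 libraries held identical values. Values per library are given for every called gene of the 38, for Atf4, Ddit3, Trib3 and Chac1, for the uncalled gene of highest mean in each role, and for up to 3 called genes of each other list. The 38 genes and all lists were chosen with earlier results of these data known. Alternatives were other pseudocounts, filters and scalings, no variance trend, voom on recovered reads, a block on the replicate number, and 6 fits that each dropped 1 library.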

Additional observations from a re-analysis of the deposited data

How the results depend on the processing

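The 37 tested genes gave 13 calls, 12 of them higher. They gave 6 calls, all higher, without a filter on low values, 7 without the variance trend and 7 with the replicate block, where the higher genes numbered 6, 7 and 7, and 6 to 12 calls with 6 to 11 higher when 1 library was left out. Calls rose to 18, with 16 higher, under voom on recovered reads, and to 16, with 14 higher, under a minimum mean of 5 FPKM. Over all genes 1391 calls became 665 without the filter, 2146 with voom on recovered reads, 730 with the replicate block and 622 to 864 without 1 library. Of the other pathway genes 25 calls became 13 without the filter, 33 with voom, 13 with the replicate block and 11 to 16 without 1 library. Replicate numbers showed no sign of pairing the libraries: deviations of same-numbered libraries from their group means correlated at 0.006, -0.034 and 0.01. Such values cannot settle whether a number marks a shared culture or day, which the labels do not say. Over 52 single genes and 15 alternatives, 658 results kept their direction and side of the threshold, 102 lost the call, 13 gained it and 1 reversed: the log2 difference of Slc1a5 was -0.025 without Ad-scramble replicate 3 (range -0.025 to 0.103 without 1 library). Each fit without 1 library also had fewer samples, and the part of this in the calls lost was not tested. Depth limits Cbs, at 36 to 78 reads per library.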
